A study of Mus musculus with 16 samples.

Results

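The genes that report which antibody class a cell makes were followed in the liver-draining lymph node (LN): the heavy chain constant genes Ighm, Ighd, Ighg3, Ighg1, Ighg2b, Ighg2c and Igha, and Jchain. These members are 8 of the 32285 genes of each matrix and were chosen by gene family, though with earlier results of these data known. Single-cell RNA came from male C57BL/6J mice of 6 to 12 weeks fed DDC (diethoxycarbonyl dihydrocollidine), a xenobiotic that injures the bile ducts, at 0.1% of the chow for 0 (D0), 5 (D5) or 19 (D19) days. The D5 library is named D6 in another of its labels. Hepatoduodenal and celiac nodes had been pooled, the number of mice was not stated, and each day was 1 library, so no test between days was possible. Live singlets, CD45+ CD11c-, CD45+ CD11c+, Pdpn+ and CD45- Pdpn- cells had been sorted and mixed in equal parts, which sets how many B cells and plasma cells a library holds. None of the 11 surface antibodies was needed here, and cells were picked by RNA alone.

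A B cell first makes IgM and IgD from one primary transcript, by splicing the same variable exon to Ighm or to Ighd. Class switching cuts out the DNA between Ighm and a downstream gene, so that the cell makes IgG or IgA for good. Plasma cells secrete the antibody, and Jchain joins secreted IgM and IgA into polymers. Germinal centres are the sites where activated B cells divide and mutate their antibody genes, and many switched cells pass through them.

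On chromosome 12 of mm10 the genes lie on the minus strand in the order in which they can be used. Ighm spans chr12:113418826-113422730 and Ighd chr12:113407535-113416324, which begins 2502 bases past Ighm. The Ighg genes follow as Ighg3 (chr12:113357442-113361232), Ighg1 (chr12:113326541-113330523), Ighg2b (chr12:113304314-113307933) and Ighg2c (chr12:113287389-113288932). Igha is the last (chr12:113256204-113260236), 158590 bases downstream of Ighm. Jchain lies outside the locus, at chr5:88519809-88527897.

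The libraries held 45317389 (D0), 47653941 (D5) and 32013882 (D19) RNA UMIs (molecules counted once each), and 6702, 6693 and 7138 barcodes had 1000 or more. Barcodes shared by a pair of libraries numbered 10 to 13. A plasma cell was a barcode with 10 or more Jchain and 2 or more Mzb1 UMIs. This gate found 12, 4 and 23 barcodes at D0, D5 and D19, against 2089, 3292 and 1641 B cells with a Cd79a and an Ms4a1 UMI. Plasma-gated barcodes were left out of the B cells, although 6, 2 and 14 of them had both of these UMIs too. Jchain, with Mzb1, chose the plasma cells and so also limited Jchain in the B cells. Its level in both classes is a description. Intervals are exact 95% intervals (Clopper-Pearson for shares, Poisson for levels in CPM, a gene's UMIs scaled to 1e6 UMIs of the class) and cover counting error only, with UMIs taken as independent. Where a count is 0, the share it allows is given by a floor of 3 counts in place of the interval.

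Plasma-gated barcodes were mostly IgM at D0 and more often IgG at D19. The isotype of a barcode was the constant gene with the most UMIs after free RNA, estimated from barcodes with 1 to 50 UMIs, had been subtracted. At D0, Ighm led 9 of 12 barcodes (75%, 42.8 to 94.5%), and Ighg3, Ighg1 and Ighg2c led 1 each. Igha led 0 of 12, which allows a share of up to 25%. At D5, Ighm led 2 and Igha 2 of 4 (50%, 6.76 to 93.2% each), and IgG led 0 of 4, which allows up to 75%. At D19, Ighm led 8 of 23 (34.8%, 16.4 to 57.3%), the Ighg genes led 12 (52.2%, 30.6 to 73.2%) and Igha led 3. The IgG barcodes of D19 were 8 of Ighg1, 3 of Ighg2c and 1 of Ighg2b. The intervals of D0 and D19 overlapped for each isotype, and the same gene led every barcode without the subtraction. A further gate took Mzb1 and at least 2 of Sdc1, Derl3, Prdm1, Tnfrsf17 and Xbp1 in place of Jchain. There Ighm led 5 and Igha 1 of 6 barcodes at D5. Just 3 barcodes of the D5 library had immunoglobulin genes at 5% or more of their UMIs, so not all of these 6 did. At D19 Ighm led 8 (61.5%), IgG 4 (30.8%) and Igha 1 of 13. The greater number of IgG than IgM barcodes at D19 was thus not found in that gate.

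**Figure D1:**
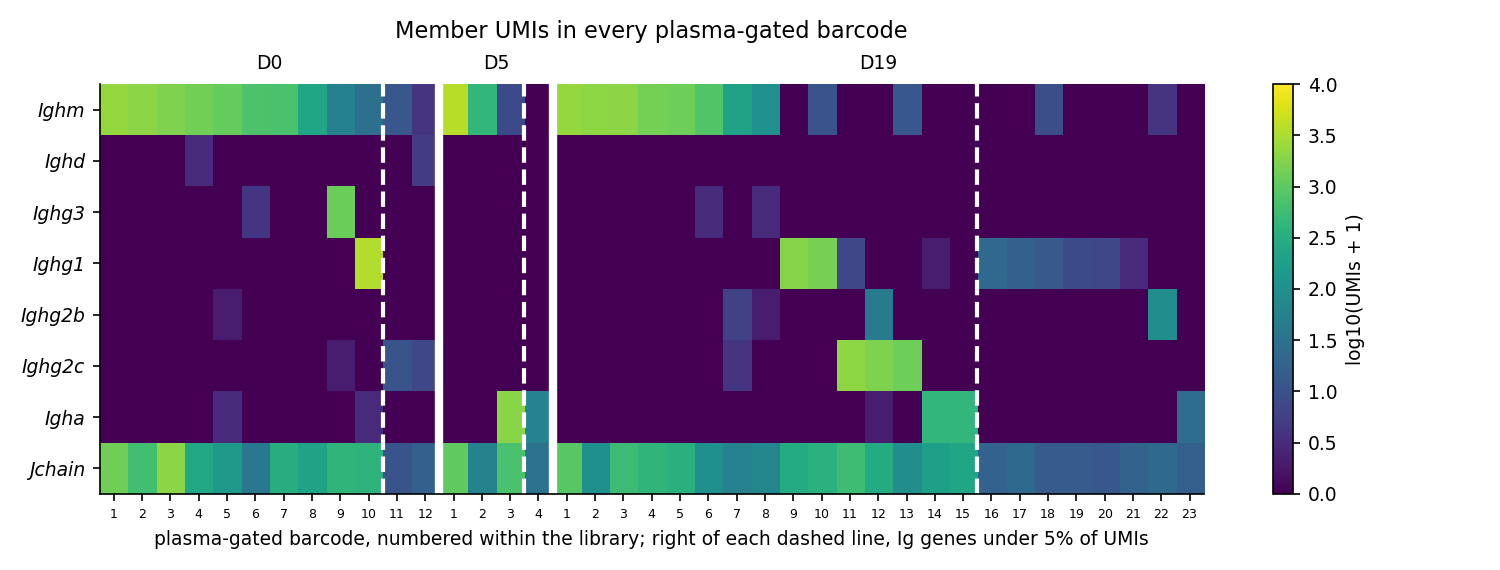
UMIs of the 8 genes (rows) in each of the 39 plasma-gated barcodes (columns, numbered within D0, D5 and D19), coloured as log10(UMIs + 1). Most columns hold 1 bright heavy chain row besides Jchain, and the columns right of each dashed line, where immunoglobulin genes are under 5% of the UMIs, are dim in every row.

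The gate held 2 kinds of barcode, which differed in how much antibody RNA they carried. In 28 barcodes (10, 3 and 15 by day) immunoglobulin genes made up 10.5 to 76.6% of all RNA UMIs, with a median of 39.8%. In the other 11 (2, 1 and 8 by day) they made up 0.65 to 3.41%. The line between them was set at 5% after the values had been seen. Among the 28 Ig-rich barcodes, Ighm led 8 of 10 at D0 (80%, 44.4 to 97.5%), 2 of 3 at D5 and 8 of 15 at D19 (53.3%, 26.6 to 78.7%). IgG led 2 of 10, 0 of 3 and 5 of 15 (33.3%, 11.8 to 61.6%). Of the 11 Ig-poor barcodes, 1 was led by Ighm, and the 8 at D19 were 6 of Ighg1, 1 of Ighg2b and 1 of Igha. The share of Ighm at D19 was thus 34.8% in the whole gate and 53.3% in its Ig-rich barcodes, while at D0 it was 75% and 80%.

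Ighm, the gene of the first antibody class, carried 228, 705, 758, 1122, 1399, 1688, 2034 and 2299 UMIs in the 8 IgM barcodes of D0 that were Ig-rich. At D5 its barcodes held 448 and 3696 UMIs. At D19 the 8 held 103, 198, 827, 1310, 1444, 1982, 2122 and 2337. The ranges of D0 and D19 overlapped over most of their length. Ighd was nearly missing from Ig-rich barcodes, with 2 UMIs in all at D0, in 1 barcode, and 0 at D5 and D19. Ighd is known to be shut off as B cells become plasma cells, whatever the class.

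The Ighg genes encode the 4 IgG subclasses of this strain. A single D0 barcode held 1244 Ighg3 UMIs, beside 57 of Ighm, and another held 3491 Ighg1 UMIs, beside 29 of Ighm. At D19, Ighg1 led Ig-rich barcodes with 1877 and 1525 UMIs, and Ighg2c led 3 with 2085, 1677 and 1286. Ighg2b led no Ig-rich barcode, and its highest count in one was 42 UMIs, in a D19 barcode led by Ighg2c. Igha, the gene of the mucosal antibody class, led 1 Ig-rich barcode at D5 with 1924 UMIs and 2 at D19 with 448 and 442. No Igha barcode was gated at D0, where Igha had 4 UMIs over the whole gate. In all 28 Ig-rich barcodes the leading gene held over 95% of the heavy chain constant UMIs (lowest, 95.5%), so each carried essentially 1 class.

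Jchain ran from 40 to 2008 UMIs in Ig-rich barcodes (median 298.5) and was present whatever the class. Per 100 heavy chain constant UMIs it stood at a median of 28.2 in the 18 barcodes led by Ighm (4.67 to 119). The 3 led by Igha had 36.9, 40.3 and 50.7. Those led by Ighg1 had 10.8, 15.1 and 23.3, those led by Ighg2c 7.25, 16.6 and 27.5, and the one led by Ighg3 had 31.8. All of these values lay inside the range of the Ighm barcodes. With 3 barcodes or fewer in each IgG or IgA class, from 1 to 2 libraries, no order of the classes was tested, and a gate at 10 Jchain UMIs leaves out cells with little of it.

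**Figure D2:**
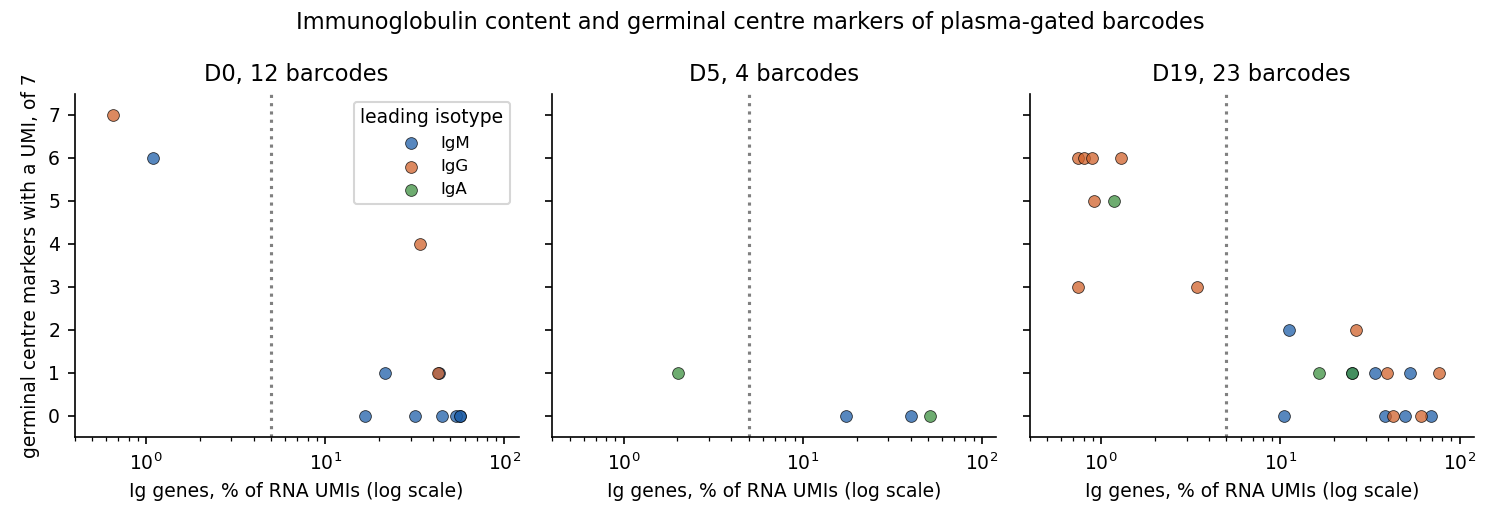
Each plasma-gated barcode by the percentage of its RNA UMIs in immunoglobulin genes (x axis, log scale) and the number of 7 germinal centre markers with a UMI (y axis), coloured by leading isotype, with the dotted line at 5%. Of the 11 barcodes left of the line, 10 have 3 or more markers, and 1 of the 28 right of it does.

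The Ig-poor barcodes carried more of the germinal centre genes and less of most plasma cell genes. Of the 13 plasma cell identity genes 12 stood lower in them than in the Ig-rich barcodes, 6 of these at 0 UMIs, as did all 14 secretion genes, and all 9 germinal centre and all 8 proliferation genes stood higher. Among the identity genes Slamf7 stood at 227 against 269 CPM, and Pou2af1, a B cell coactivator, was the one that stood higher (300 against 180 CPM). These CPM are over all UMIs, and Ig genes made up a median of 39.8% of them in Ig-rich barcodes. That total alone lowers every other gene there in CPM, so the lead of Pou2af1 is not read as a difference. It also favours the counts of germinal centre and proliferation genes that stood higher. The share of all genes that stood higher was not computed. All 11 had an Ms4a1 UMI (Ms4a1 encodes CD20, which plasma cells lose), against 11 of the 28 Ig-rich, 10 had Mki67, a proliferation gene, and 10 had 3 or more of 7 germinal centre markers, among them Fas, Mef2b, S1pr2, Bcl6, Rgs13 and Gcsam. Mef2b, a germinal centre transcription factor, had 43 UMIs in 10 of the 11 and 11 UMIs in 5 of the 28 Ig-rich barcodes. Xbp1, the transcription factor that drives secretion, stood at 55.2 CPM against 1004 CPM in Ig-rich barcodes, and no Ig-poor barcode had 5 Xbp1 UMIs. Prdm1, Sdc1 and Tnfrsf17, which define plasma cells, had 0 UMIs in all 11. In the Ig-rich they had 35, 57 and 36 UMIs, found in 16, 18 and 9 of the 28 barcodes. The chaperone Hsp90b1 stood at 460 against 2032 CPM, and the proliferation gene Stmn1 at 1300 against 71.4 CPM. The 28 as a group thus bore the markers of plasma cells, while the 11 are named here only by their low Ig content. Because the line was drawn on these barcodes, none of these differences was tested.

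Heavy chain UMIs in the Ig-poor barcodes were few. The 6 of D19 led by Ighg1 held 22, 16, 12, 7, 6 and 2 Ighg1 UMIs, the one led by Ighg2b held 90 Ighg2b and the one led by Igha held 26 Igha. At D0, 1 held 11 Ighm and 10 Ighg2c UMIs, too close to name a class, and the other held 6 Ighg2c, 4 Ighd and 3 Ighm UMIs. Its Ighg2c lead is likewise weak, although it counts as IgG above and among the germinal centre cells below. At D5 the Ig-poor barcode held 58 Igha UMIs and was the only one of the 39 led by a lambda light chain, with 166 Iglc2 and 0 Igkc UMIs. Jchain was 10 to 30 UMIs in these 11, just inside the gate. Just outside it, 6, 5 and 11 barcodes by day had 5 to 9 Jchain UMIs with 2 or more of Mzb1, and 0, 0 and 2 had 10 or more Jchain with less Mzb1. Barcodes outside the gate with immunoglobulin genes at 5% or more numbered 5. Of these, 1 at D0 held 596 Ighm and 177 Mzb1 UMIs but 1 of Jchain, and 1 at D19 held 322 Igha and 7 Jchain UMIs.

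Variable genes differed from cell to cell. The 28 Ig-rich barcodes were led by 20 different heavy chain V genes and 20 different light chain V genes, and 0 pairs of heavy and light V genes occurred more than once. In 27 the leading heavy V gene held over 90% of the heavy V UMIs. At D0, Ighv1-78 and Ighv4-1 led 2 barcodes each, and at D19 Ighv1-72, Ighv1-75, Ighv6-3 and Ighv9-3 led 2 each. Iglv1, a lambda gene, was the light V gene with the most UMIs in 4 of the 15 barcodes of D19, although every Ig-rich barcode had more Igkc than lambda constant UMIs. A leading light V gene held over 90% of the light V UMIs in just 4 of 28, so light V names are less certain than heavy ones.

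Over the 12 and 23 gated barcodes of D0 and D19, the gene most like Jchain was Igkc, the kappa constant gene, with a mean Spearman correlation of 0.84 over both libraries among 3700 genes. Trp53inp1 (0.83) and Iglv1 (0.65) came next. Ighm was most like Trp53inp1 (0.74), Txndc5 (0.69), a disulfide isomerase of the secretory pathway, and Jchain (0.62). The nearest genes to Igha were Cdk11b (0.59), to Ighg1 Trmt6 (0.54), to Ighg2b Uba1 (0.59) and to Ighg2c Aarsd1 (0.65). Igha and Ighg2b led 0 barcodes at D0, so the D0 part of their correlations rests on stray UMIs. That of Ighg1 rests on 1 barcode, which held all 3491 of its UMIs, and that of Ighg2c on 17 UMIs. All of the correlations share depth and the mix of Ig-rich and Ig-poor barcodes.

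Summed over the gate, 4 of the 7 members with 20 or more UMIs differed by over 2-fold between D19 and D0 on the log2(CPM + 10) scale, against 15.1% of all 2559 genes. On that scale Ighg2c differed by 7.43, Igha by 6.58, Ighg2b by 4.82 and Ighg3 by -7.99. Each of these sums came mostly from the 1 to 3 barcodes with the most UMIs. Ighm (-0.60), Ighg1 (-0.61) and Jchain (-0.90) stayed within 2-fold. Of the 14 genes of the secretion list 3 were lower at D19 (Hspa5 -1.15, Derl3 -1.76, Txndc5 -1.08). Of the 8 proliferation genes 3 were higher (Birc5 1.52, Top2a 1.10, Tyms 1.01) and Mcm5 was lower (-1.11). Of the 5 germinal centre genes measured 2 were higher (Rgs13 1.50, Mybl1 1.54). Cd28 (-2.18), Cxcr4 (1.46) and Fcmr (-1.77) were the 3 others of the lists past 2-fold, and the light chains had none of 4. Ig-poor barcodes were 8 of 23 at D19 and 2 of 12 at D0, and their part in these differences was not tested.

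Cells that carried germinal centre markers were mostly IgM at D0 and mostly IgG at D19. Barcodes of the B cell or plasma gate with a UMI of 3 or more of the 7 markers numbered 20 of 2101 at D0 (0.952%, 0.582 to 1.47%), 5 of 3296 at D5 (0.152%, 0.0493 to 0.354%) and 30 of 1664 at D19 (1.80%, 1.22 to 2.56%). T cells that met the same rule numbered 1 of 2315, 1 of 1399 and 2 of 2057. At D0, Ighm led 16 of the 20 (80%, 56.3 to 94.3%) and IgG led 4, with 2 of Ighg2b, 1 of Ighg2c and 1 of Ighg3. At D5, Ighm led 4 of 5 and Ighg2c 1. At D19, Ighm led 7 of 30 (23.3%, 9.93 to 42.3%), and IgG or IgA led 23 (76.7%, 57.7 to 90.1%). Ighg1 led 14 of those 23, Ighg2b 3, and Ighg3, Ighg2c and Igha 2 each. The intervals of Ighm at D0 and D19 did not overlap, but they leave out the spread between mice, which 1 library a day cannot show.

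Part of these cells were the Ig-poor barcodes described above. Outside the plasma gate, IgG or IgA led 2 of 17 at D0 (11.8%, 1.46 to 36.4%), 1 of 5 at D5 and 15 of 22 at D19 (68.2%, 45.1 to 86.1%). In most of them the leading gene had few UMIs, with 9 to 79 of Ighm at D0, 6 to 19 of Ighm at D19 and 1 to 22 of Ighg1 at D19. The exceptions were the Ig-rich D0 barcode with 1244 Ighg3 UMIs and a D19 barcode with 90 Ighg2b UMIs. Kept to barcodes whose leading gene had 3 or more UMIs, the counts were 4 of 20 at D0 and 19 of 26 at D19 (73.1%, 52.2 to 88.4%). Median depth was 17760.5 UMIs in the cells of D0 and 9020 in those of D19. Mki67 was found in 13 of 20, 4 of 5 and 18 of 30.

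**Figure D3:**
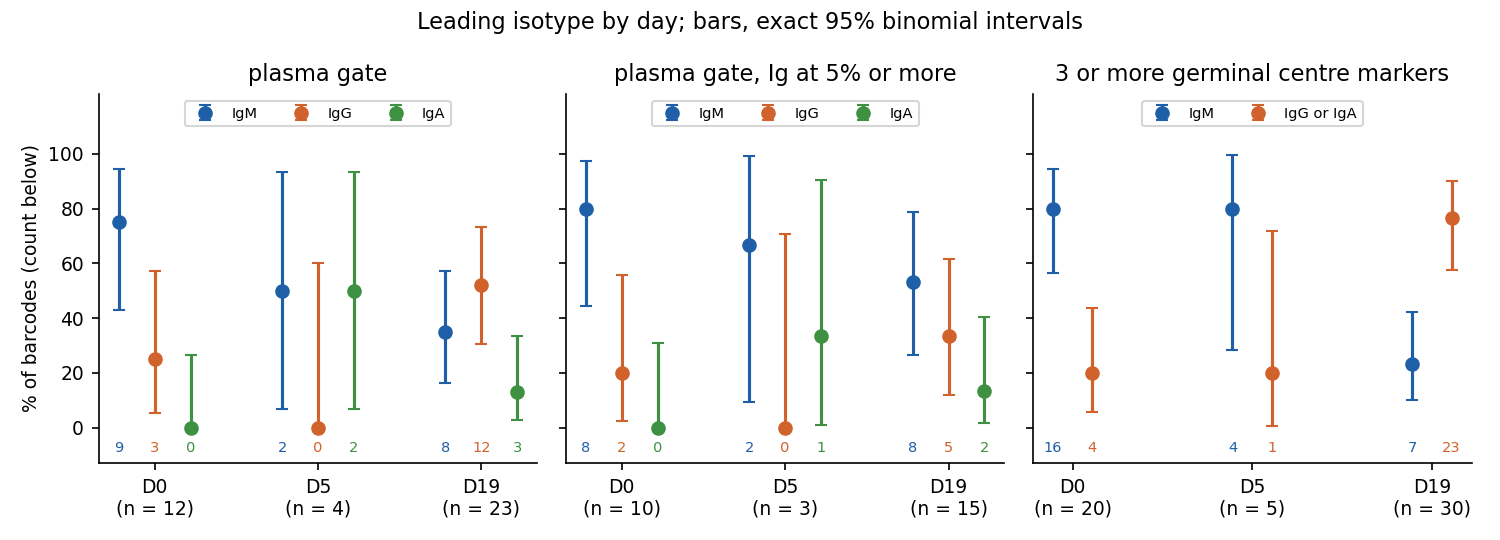
Percentage of barcodes led by each isotype at D0, D5 and D19 (y axis, with the count under each point) in the plasma gate, in its Ig-rich barcodes and in cells with 3 or more germinal centre markers, with exact 95% binomial intervals. In the right panel IgM is at 80% at D0 and 23.3% at D19 with intervals that do not meet, while the intervals overlap in the other panels.

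Most B cells were IgM and IgD cells on all 3 days. A B cell was called switched when its Igha and Ighg UMIs, less free RNA, were at least 3 and more than its Ighm and Ighd UMIs. Switched cells were 9 of 2089 at D0 (0.431%, 0.197 to 0.816%), 9 of 3292 at D5 (0.273%, 0.125 to 0.518%) and 20 of 1641 at D19 (1.22%, 0.746 to 1.88%). The interval of D19 lay above that of D5 and overlapped that of D0. In B cells with 2000 or more UMIs the shares were 0.436% (0.199 to 0.825%), 0.282% (0.129 to 0.534%) and 1.96% (1.20 to 3.00%), and there the interval of D19 lay above both. With the 6, 2 and 14 plasma-gated barcodes that also met the B cell rule counted in, all 11 Ig-poor ones among them, the shares were 10 of 2095 (0.477%, 0.229 to 0.876%), 10 of 3294 (0.304%, 0.146 to 0.558%) and 30 of 1655 (1.81%, 1.23 to 2.58%). The interval of D19 lay above both in that count too. Without the plasma-gated barcodes, the 9 switched cells of D0 were led by Igha (4), Ighg2b (4) and Ighg1 (1). The 9 of D5 were led by Igha (4), Ighg2b (4) and Ighg3 (1), and the 20 of D19 by Ighg1 (8), Ighg2b (7), Igha (3) and Ighg3 (2). Ighg1 thus led 1 switched cell in D0 and D5 together and 8 at D19. Among B cells with fewer than 3 germinal centre markers the switched share was 0.386% (0.167 to 0.759%), 0.274% (0.125 to 0.519%) and 0.741% (0.384 to 1.29%), and all 3 intervals overlapped. Switched cells were deeper than other B cells, with medians of 6474 against 3496.5 UMIs at D0, 10005 against 3953 at D5 and 8419.5 against 2243 at D19.

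**Figure D4:**
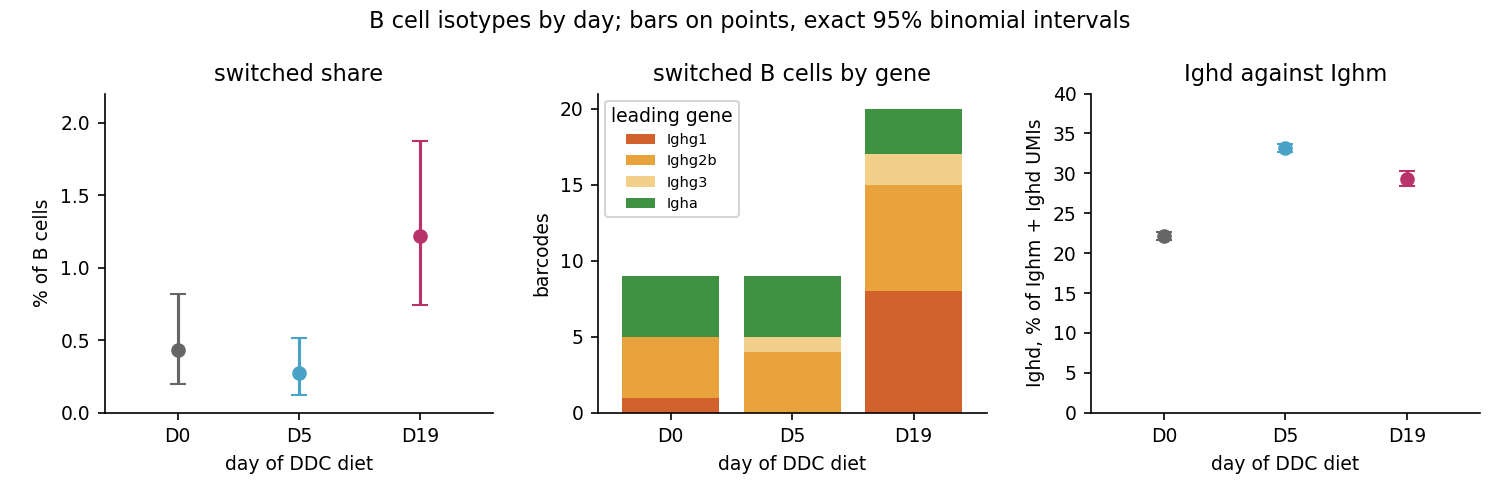
B cells by day. Left, the percentage switched. Middle, the number of switched cells led by each gene. Right, Ighd as a percentage of Ighm and Ighd UMIs. Points carry exact 95% binomial intervals, and the switched share is 0.431%, 0.273% and 1.22%, with Ighg1 leading 8 of the 20 cells of D19.

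Summed over B cells, Ighm stood at 2127 CPM at D0 (2098 to 2155), 1661 at D5 (1642 to 1681) and 1235 at D19 (1205 to 1264). Ighd stood at 604 (589 to 619), 825 (811 to 839) and 513 CPM (494 to 532). Ighm was thus lower with each library along the diet and Ighd was highest at D5. Some other B cell genes took the order of Ighm, with Igkc at 7849, 6135 and 4107 CPM, Fcmr at 727, 636 and 375 CPM and 8 summed B cell markers at 5455, 5285 and 3854 CPM. Others did not, such as Pou2af1 (92.7, 86.2 and 91.4 CPM) and Fcgr2b (46.0, 54.3 and 40.4 CPM). Whether the levels of Ighm are tied to those of other B cell genes was not tested. Ighg1 had 16, 1 and 84 UMIs, or 1.58 (0.905 to 2.57), 0.0601 and 15.4 CPM (12.3 to 19.1), spread at D19 over 22 cells with at most 14 in 1. Ighg2b stood at 9.10, 4.99 and 19.7 CPM, Ighg3 at 6.13, 2.47 and 7.54 CPM, and Ighg2c at 1.58, 0.241 and 2.57 CPM. Igha stood at 16.3, 11.1 and 13.4 CPM and Jchain at 11.6, 3.13 and 21.5 CPM. Before free RNA was taken off, these 5 genes and Jchain were lowest at D5. With the free RNA expected in the same cells taken off, Igha stood at 7.11 (4.72 to 9.80), 10.8 (9.28 to 12.6) and 5.22 CPM (2.32 to 8.68). With this free RNA profile it was highest at D5, with intervals that overlapped for D0 and D5. Single B cells of D5 held 42, 34 and 23 of its 185 UMIs, so this level rests largely on few cells. T cells of D19 held less Igha than this profile predicts, so the D19 value may be too low. Jchain then stood at 4.93, 2.89 and 17.5 CPM, Ighg1 at 1.16, 0.0601 and 14.2 CPM, and Ighg2c at 1.54, 0.241 and 1.54 CPM.

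Counted past 2-fold on the log2(CPM + 10) scale, 0 of 7 members passed in B cells between D5 and D0, against 0.403% of 11906 genes. This 0 says little of the low members, since a gene at 10 CPM or less at D0 cannot count as lower on this scale. In plain CPM, untested, Ighg2c was 1.58 at D0 and 0.241 at D5, Jchain 11.6 and 3.13, and Ighg3 6.13 and 2.47. Between D19 and D0, 1 of 8 passed (Ighg1, 1.14), against 1.5% of 11143 genes. Between D19 and D5, 2 of 7 passed (Ighg1 1.34 and Jchain 1.26), against 0.586% of 11776 genes. Jchain in B cells is limited by the plasma gate, which took out barcodes rich in it, so its pass is a description only. These 3 comparisons share libraries and are not independent. The secretion list had 3 of 14 genes lower at D19 than at D0, the chaperone Hsp90b1 (-1.25), Sdf2l1 (-1.35) and Creld2 (-1.01), and 0 in the other comparisons. Of the homing list, the gut integrin gene Itgb7 was lower at D19 than at D0 (-1.32). The identity, germinal centre, proliferation, light chain and immunoglobulin receptor lists had 0 past 2-fold in each comparison. The added 10 CPM hold low genes within 2-fold, so for most germinal centre and proliferation genes this count says little. In plain CPM, untested, the genes went different ways. Mef2b stood at 6.73, 3.67 and 12.9 CPM at D0, D5 and D19, and Bcl6 at 33.9, 30.1 and 24.8 CPM. Of the proliferation genes, Birc5 stood at 8.61, 2.89 and 14.3 CPM and Mcm5 at 17.9, 12.5 and 9.01 CPM.

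Ighd took a changing part of the Ighm and Ighd transcripts. Its share of their sum was 22.1% at D0 (21.6 to 22.6%), 33.2% at D5 (32.7 to 33.6%) and 29.3% at D19 (28.4 to 30.3%). Over single B cells with 5 or more such UMIs, the median was 22.9%, 33.3% and 28.6%. In B cells with a UMI of Fcer2a, the CD23 gene of follicular B cells, the share was 24.0%, 34.0% and 31.1%, and in those without one it was 18.2%, 31.1% and 27.8%, so the same order of days was found in either. With the plasma-gated barcodes that met the B cell rule counted in, it was 19.8%, 32.8% and 23.7%. Both genes were seen in 86.2%, 92.2% and 66.5% of B cells, and the lower value at D19 goes with a lower median depth (2253 UMIs, against 3503 at D0 and 3955.5 at D5). Thinned to 1000 UMIs a cell, Ighm was found in 85.7%, 78.7% and 70.3% and Ighd in 49.1%, 57.2% and 44.5%.

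Within the libraries, switched B cells were set against all other B cells by edgeR's quasi-likelihood test with Benjamini-Hochberg adjustment, on UMIs summed per library (9, 9 and 20 switched cells) with the library as a block. Immunoglobulin genes and Jchain were left out, since the rule used them. Of 9725 genes, 44 rose (0.452%) and 74 fell (0.761%) in switched cells at an adjusted p under 0.05. The median log2 difference over all genes was -0.25. This contrast was added after the data had been seen, and what it rests on most is D19. Without D19, 3 genes rose and 17 fell.

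Germinal centre and dividing-cell genes were among those that rose. Nuggc, a GTPase gene of germinal centre B cells, rose by 4.68 on the log2 scale (SE 1.09, adjusted p = 4.19e-03, edgeR), with 2, 0 and 6 UMIs in the switched cells and 6, 6 and 5 in the far more numerous others. Mef2b rose by 2.98 (SE 0.62), with 4, 0 and 23 UMIs in the switched cells. Of the 6 genes of that list tested 3 rose, and the median was 2.57. Of the 8 proliferation genes 6 rose, with a median of 2.36. They were Cdk1 (3.31), Top2a (2.56), Mki67 (2.43), Birc5 (2.38), Tyms (2.34) and Stmn1 (2.24). Stmn1 had 18, 3 and 98 UMIs in switched cells, so most of its UMIs came from D19. These 98 were in 7 of the 20 switched cells of that day, and its 36 Top2a UMIs were in 6, so a minority of the cells carried them. Switched cells of D5 had 0 UMIs of Cdk1, Mki67 and Tyms. Without D19 neither Mef2b (1.85) nor any of the 6 proliferation genes passed in edgeR, each with an adjusted p of 0.999. Their differences were then 0.86 for Cdk1, 1.75 for Top2a, 2.02 for Mki67, 1.71 for Birc5, 1.23 for Tyms and 1.12 for Stmn1.

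Genes of migration and of IgM binding were among those that fell. Of the 10 homing genes tested 3 fell, among them S1pr1, the receptor for leaving a node (-1.41, SE 0.35), and Cxcr4, a chemokine receptor (-1.06, SE 0.30). The median of the homing list was -0.11, above that of all genes. Fcmr, the receptor for IgM, fell by 1.13 (SE 0.28) and was the call among the 5 immunoglobulin receptor genes. S1pr1, Cxcr4 and Fcmr were lower in each of the 3 libraries, but without D19 none of them passed in edgeR (adjusted p = 0.379, 0.592 and 0.400). In cells with 5000 or more UMIs in both classes S1pr1 (-0.97), Cxcr4 (-0.90) and Fcmr (-0.68) kept their sign but no longer passed. Of the rises named above, Nuggc (4.06), Mef2b (2.55), Top2a (1.89), Cdk1 (2.59) and Stmn1 (1.61) still passed there, and Mki67 (1.50), Birc5 (1.46) and Tyms (1.60) did not. By DESeq2, 2 of the germinal centre genes, 2 of the proliferation genes and 0 of the homing and receptor genes passed. Of the 11 plasma cell identity genes tested 0 passed in edgeR, 1 at an unadjusted p under 0.05 and 0 by DESeq2, and of the 14 secretion genes 0 passed in each of the 3 ways, so switched B cells were not shown to differ from others in them. Plasma-gated barcodes, picked for Jchain and Mzb1, had been left out of both classes, so this says nothing of them.

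The 5 largest rises included Nuggc, P2ry12 (4.52), Pbk (4.27) and Dnm3 (4.11), each with at most 6 UMIs in switched cells of any library. From 5000 UMIs in both classes P2ry12 (3.66) and Pbk (3.36) no longer passed in edgeR, while Nuggc (4.06) and Dnm3 (3.32) did. The 5 largest falls were Ctrb1 (-5.48), Cela3b (-4.14), Rasgef1b (-3.85), Xylt1 (-3.80) and Ddx10 (-3.78). By DESeq2 none of these falls passed, with log2 differences of -1.13, -1.08, -3.69, -3.48 and -3.50 in the same order. Ctrb1 and Cela3b encode pancreatic digestive enzymes, and 2650 and 523 of their UMIs in unswitched cells were from D19. A pair of further genes, picked after their values were seen, passed with each library left out in turn. Bhlhe41, a transcription factor known from B-1a cells, rose by 3.21 (SE 0.40, adjusted p = 6.20e-12, edgeR) and had 5, 21 and 31 UMIs in switched cells. Zfp318, which is needed for the splicing to Ighd, fell by 2.91 (SE 0.48, adjusted p = 2.17e-06, edgeR) and had 1, 2 and 4 UMIs there, against 1114, 2971 and 687 in the other B cells.

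**Figure D5:**
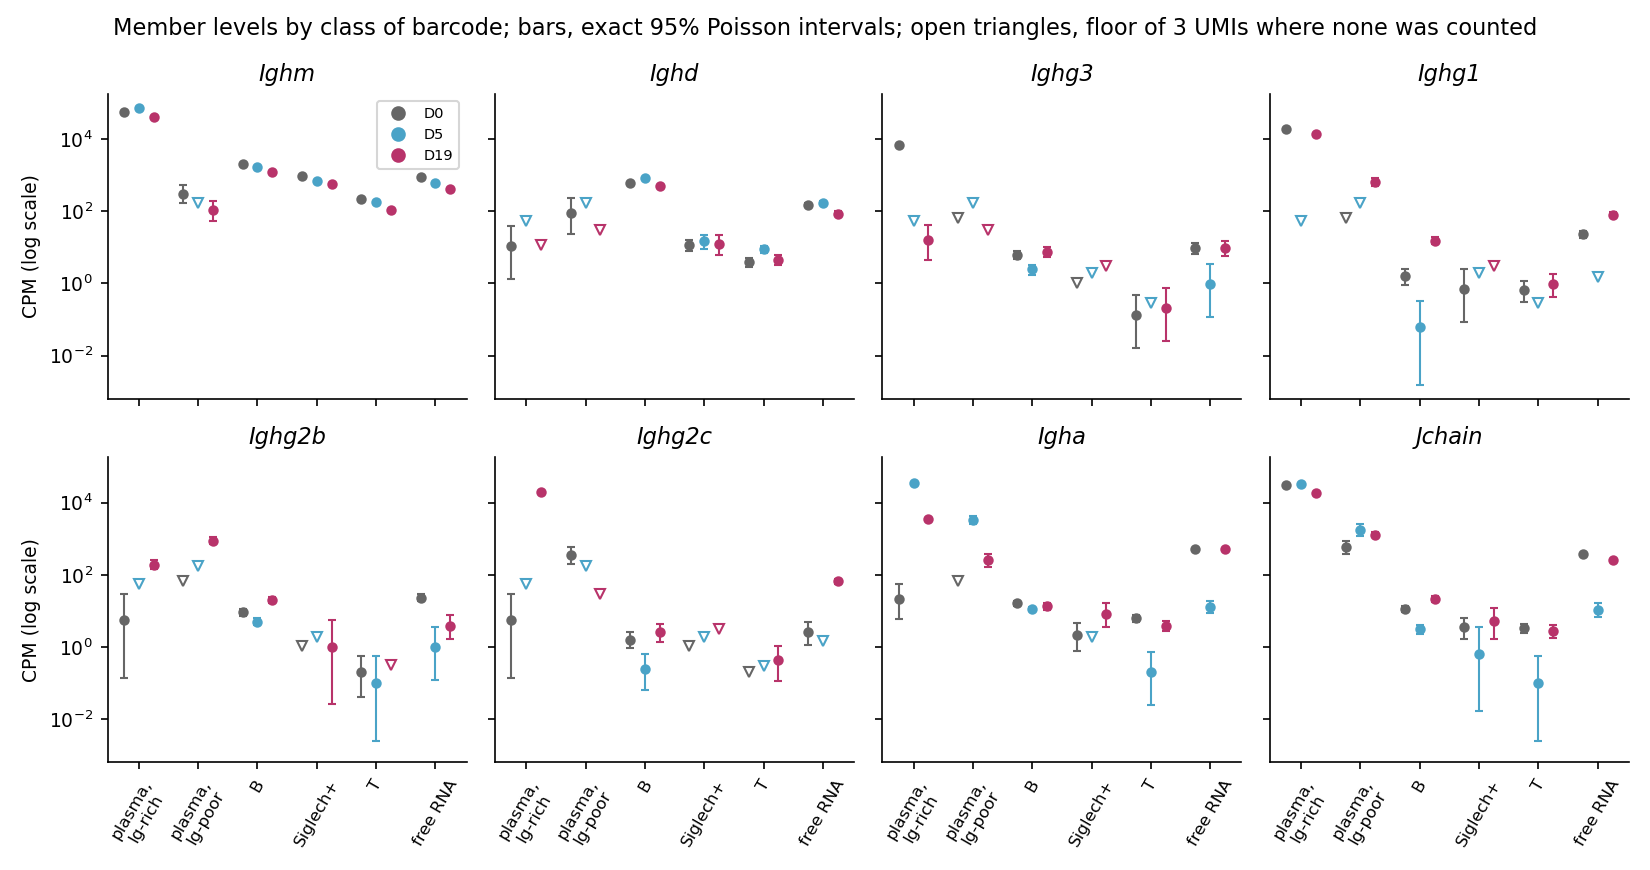
Level of each member in CPM (log scale) in Ig-rich and Ig-poor plasma-gated barcodes, B cells, cells with 3 or more Siglech UMIs, T cells and free RNA (x axis), at D0, D5 and D19, with exact 95% Poisson intervals and open triangles at the floor of 3 UMIs where none was counted. Ighm is at 581 to 934 CPM in Siglech cells and 108 to 219 CPM in T cells, while Igha in free RNA is at 506, 13.2 and 520 CPM.

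Free RNA set the background for these values, and it differed by day. A droplet held an estimated 88.0, 114 and 52.3 free UMIs. In free RNA, Ighm stood at 873, 629 and 418 CPM, Ighd at 155, 174 and 87.1, Ighg1 at 23.2, 0 and 81.3, Ighg2c at 2.52, 0 and 65.7, Igha at 506, 13.2 and 520 and Jchain at 365, 10.7 and 253. Igha and Jchain were thus both over 20-fold lower in the free RNA of D5 than in that of the other days. T cells, which should lack antibody transcripts, had 0.911, 0.952 and 0.662 times the Igha and 0.685, 0.584 and 0.956 times the Jchain that free RNA predicts. In B cells, Igha stood at 1.77, 37.4 and 1.64 times the prediction and Jchain at 1.74, 12.9 and 5.39 times. Ighm in B cells was 134, 117 and 188 times the prediction.

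Ighm was also found in cells of other types. T cells held 1.45, 1.30 and 0.501 Ighm UMIs a cell, 18.8, 18.2 and 22.9 times the prediction from free RNA, while Ighd was at 1.87, 3.24 and 4.59 times. In cells with 3 or more UMIs of Siglech, a marker of plasmacytoid dendritic cells, Ighm stood at 934, 699 and 581 CPM and Ighd at 11.6, 14.7 and 12.3 CPM. Ighm with little Ighd was thus also found outside B cells and plasma cells, and the plasma gate held 0 barcodes with a Siglech UMI.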

How the data were processed

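Raw UMI counts per barcode and gene, not filtered for cells, were deposited by the authors for 3 LN CITE-seq libraries (10x 3′ v3.1). The matrix headers name Cell Ranger 4 and the submitters' notes name mm10. Gene symbols were matched to coordinates of GRCm38.p6 in RefSeq. The members and gene lists were chosen with earlier results of these data known. Barcodes with 1000 or more RNA UMIs were used, and quality limits and doublets (Scrublet, scanpy 1.11.5, 0.8% per 1000 barcodes left out) were alternatives. Free UMIs per droplet were set from light chain UMIs in T cells (Cd3e, no Cd79a or Ms4a1, under 10 Jchain), so kappa in T cells is no independent check.

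The text names the members, gate genes, members of 7 lists past the test or past 2-fold, the 5 largest rises and falls of the contrast, leading V genes and the genes most like a member. Exceptions are marked, and some genes that met this rule are not reported here. Planned were edgeR contrasts of IgA and of IgG against IgM plasma cells, in libraries with 10 or more cells of both classes. None had them. The contrast of switched against other B cells took their place, with edgeR 4.0.16, DESeq2 1.42.0 and R 4.3.3. It did not keep that minimum of 10, since D0 and D5 had 9 switched cells each. On simulated counts with 200 genes changed 8-fold among 9646, 76.5% were recovered, with 6 other calls. The changed genes were drawn from those above the median level, with no difference between days. This rate thus says little of genes with few UMIs. Intervals used scipy 1.17.1 under Python 3.11.15. Antibody tags and the γδ T cell pools were not used here. No antibody sequence is printed, as the tables given hold none for the constant genes.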

Additional observations from a re-analysis of the deposited data

Results flagged for a closer look

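Ighe, the IgE constant gene, had 44 UMIs in the free RNA of D19, each in a different barcode, against 1 at D0 and 0 at D5, and 0 UMIs in barcodes with more than 50 UMIs at D19. Igha had 1811 UMIs in the free RNA of D0, 68.9% of its UMIs there, over 1119 barcodes with at most 9 in 1, although the plasma gate of that day held 4 Igha UMIs. At D19 the free RNA held 1068 Igha UMIs, 42.1% of the total, against 917 in the plasma gate. At D5 the free RNA held 1.19% of the Igha UMIs. The cells this RNA came from were not identified.

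Ighm in T cells was 18.8 (D0), 18.2 (D5) and 22.9 (D19) times the level that free RNA predicts. Without T cells that had a Siglech UMI the values were 17.4, 17.1 and 22.1. Doublets, reads from other parts of the locus and T cell transcription were not tested.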

How the results depend on the processing

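Of 159 recalculated shares, 150 stayed within the interval of the reported value. Many of these intervals are wide, such as 6.76 to 93.2% for IgM at D5, so this count cannot show that the shares hold. The isotype shares of cells with germinal centre markers were not among them. Those shares were not recalculated without doublets or at other depth and quality limits. In a gate without Jchain, Ighm led 61.5% (8 of 13) and IgG 30.8% of the barcodes at D19. At D5, Ighm led 83.3% and Igha 16.7% (1 of 6) in that gate, although just 3 barcodes of that library had 5% or more Ig. At D19, IgG led 29.4% (5 of 17) of barcodes with 5% or more Ig and no need of Jchain or Mzb1. The switched share at D19 was 1.96% (20 of 1023) from 2000 UMIs. The Ighd share was 22.7% at D0 without the highest Scrublet scores, and 24.0%, 34.0% and 31.1% at D0, D5 and D19 in B cells with Fcer2a. It was 19.8% at D0 and 23.7% at D19 with the plasma-gated barcodes that met the B cell rule. Scrublet removed 2, 0 and 0 plasma-gated barcodes and 3, 0 and 1 switched B cells.

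The contrast of switched B cells, added after seeing the data along with its alternatives, gave 118 calls (44 higher, 74 lower). It gave 77 (24 and 53) from 5000 UMIs in both classes, 42 (30 and 12) with no replicate block, 31 (24 and 7) by DESeq2, and 20 to 103 with a library left out, 20 of them without D19 and 69 (39 and 30) without D5. The correlations of paired deviations were 0.12, 0.07 and 0.16. No named gene changed direction. Of the named genes that could be fitted, 15 of 18 no longer passed without D19 and 15 of 23 by DESeq2; the causes were not tested. The planned contrasts of IgA and IgG against IgM plasma cells and their alternatives were not run, for want of cells. Depth limits the rest: 4 plasma-gated barcodes at D5 and at most 23 on any day.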
